A study of Mus musculus with 8 samples.

Results

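The genes of the interleukin-12 family studied here were Il12a, Il12b, Il23a, Il27 and Ebi3, and the data were the accessible regions around them in mouse macrophages. A peak belonged to a gene when its summit lay inside the gene's span in the mm10 build or within 50 kb of either end. The 299 such peaks merged into 52 regions, out of 76751 regions in the whole series. All 5 genes had regions, with 7 at Il12a, 7 at Il12b, 9 at Il23a, 18 at Il27 and 11 at Ebi3. Only 18 of the 52 regions had the family member itself as the nearest protein-coding gene, since Il23a, Il27 and Ebi3 have close neighbours. The region at the Ebi3 start, inside the spans of both Ebi3 and Zfp119b, was counted under Zfp119b alone.

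The cells were macrophages grown for 7 days from mouse bone marrow, either wild type (WT) or knockout for Lamin-A (KO). Lamin-A is a filament protein that lines the inside of the nuclear envelope and is made from Lmna. They were left untreated or were activated for 6 h with lipopolysaccharide (LPS), the glycolipid of Gram-negative bacteria that TLR4 recognises. ATAC-seq, in which the Tn5 transposase inserts sequencing adapters into open DNA, was run on 2 libraries in each of the 4 groups: WT untreated, WT LPS, KO untreated and KO LPS. The comparisons ask what LPS does to accessibility and whether this differs without Lamin-A. All cells had been frozen in medium with 5% DMSO and thawed before tagmentation. The mouse strain, age and sex, the LPS dose and the targeted part of Lmna are not stated in the labels, and nothing says that the 2 libraries of a group came from different animals.

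Interleukin-12 family cytokines are heterodimers that antigen-presenting cells release to steer T and NK cells. The product of Il12b pairs with that of Il12a to make IL-12, which favours interferon-gamma responses, and with that of Il23a to make IL-23, which maintains interleukin-17-producing cells. The product of Il27 pairs with that of Ebi3 to make IL-27, which has both activating and restraining effects on T cells. In macrophages, Il12b is a classical late target of TLR4 signalling, and an LPS-responsive enhancer upstream of its start has been described in the mouse.

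The start sites of Il12a, Il12b and Ebi3 are shown first because they differed in whether a peak covered them. RefSeq (GRCm38.p6) gives 4 start-site windows for these 3 genes, each of 300 bases, and none was matched for Il23a or Il27, whose spans are therefore described by their ends. The 250 bases before the start are printed 5′ to 3′ for Ebi3 (chr17:55952373-55952622, plus strand), Il12b (chr11:44399813-44400062, plus strand) and the downstream of the 2 starts of Il12a (chr3:68691174-68691423, plus strand), with matches to the NF-kB letters in capitals.
Ebi3: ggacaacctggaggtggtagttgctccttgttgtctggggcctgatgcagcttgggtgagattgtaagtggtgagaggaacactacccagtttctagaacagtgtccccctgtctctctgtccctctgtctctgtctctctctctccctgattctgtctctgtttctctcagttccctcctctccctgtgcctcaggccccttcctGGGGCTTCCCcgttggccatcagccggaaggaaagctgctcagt
Il12b: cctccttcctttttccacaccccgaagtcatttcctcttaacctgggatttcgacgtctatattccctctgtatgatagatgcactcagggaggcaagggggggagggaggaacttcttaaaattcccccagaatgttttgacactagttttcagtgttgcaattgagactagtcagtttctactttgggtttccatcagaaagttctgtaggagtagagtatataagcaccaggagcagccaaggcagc
Il12a: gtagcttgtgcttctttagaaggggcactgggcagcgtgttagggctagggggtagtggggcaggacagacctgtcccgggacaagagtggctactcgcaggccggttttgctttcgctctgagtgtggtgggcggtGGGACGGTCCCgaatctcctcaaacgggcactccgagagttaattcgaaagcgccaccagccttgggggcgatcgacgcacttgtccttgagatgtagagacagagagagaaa
The Ebi3 window lay under a peak in all 8 libraries, which held for 29.7% of the 32851 RefSeq start-site windows. The Il12b window and both Il12a windows lay under no peak in any library, as did 62.3% of all windows. The letters searched on both strands were GGGA and CC with any 4 bases between them for NF-kB, GAAA and GAAA with any 2 bases between for ISRE, TGANTCA for AP-1, GGAAGT for PU.1, TTGC and AA with any 2 bases between for C/EBP, and TATAAA for the TATA box. In the whole 300-base windows, NF-kB letters began 44 bases before and 36 bases after the Ebi3 start, and 113 and 112 bases before (2 matches that overlap on opposite strands) and 18 bases after the printed Il12a start. No other letters matched in these windows, and none of the 6 matched in that of Il12b or the other window of Il12a. NF-kB letters were present in 20.7% of all windows, ISRE in 3.44%, AP-1 in 7.81%, PU.1 in 23.8%, C/EBP in 10.8% and TATA in 13.6%.

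Before the loci are described, some facts of the series bear on every value. The lists held 44504 to 59750 peaks covering 17.9 to 24.96 Mb, and the 4 KO lists, with 44504 to 49661 peaks, were all shorter than the 4 WT lists, with 53942 to 59750. Of all merged regions 30960 (40.3%) were called in all 8 libraries, against 24 of the 52 regions of the family (46.2%). The labels name macrophages, and a region at a gene end was called in all 8 libraries for 7 of 7 macrophage markers, 1 of 5 dendritic cell markers, 2 of 5 T and NK cell markers, 0 of 5 B cell markers and 2 of 5 neutrophil markers. Lmna itself had 7 regions inside its span, of which 3 were called in all 8 libraries and 1 in all 4 WT and no KO libraries. A peak list does not show whether Lamin-A was lost, so these values do not check the labels.

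For each peak the authors' caller gave a fold enrichment over the local background, a ratio made within 1 library. The pileup, meaning the number of reads stacked at the summit, and the local background in reads were worked out from that ratio and the p-value. The lowest pileup that was called in a library was 23 or 24 reads, so an uncalled region is not the same as closed DNA. Of the 30960 shared regions, the median ratio of mean pileup was 0.886 for LPS over untreated in WT and 0.879 in KO, and it was 0.795 for KO over WT in untreated cells and 0.788 after LPS. Pileup ratios of the family are to be read against these medians. How many of all shared regions separate the groups in pileup was not counted. Levels were compared between groups as percentiles of fold enrichment among the 30960 shared regions, from 0 for the weakest to 100 for the strongest, with limma and Benjamini-Hochberg adjustment over all of them.

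**Figure D1:**
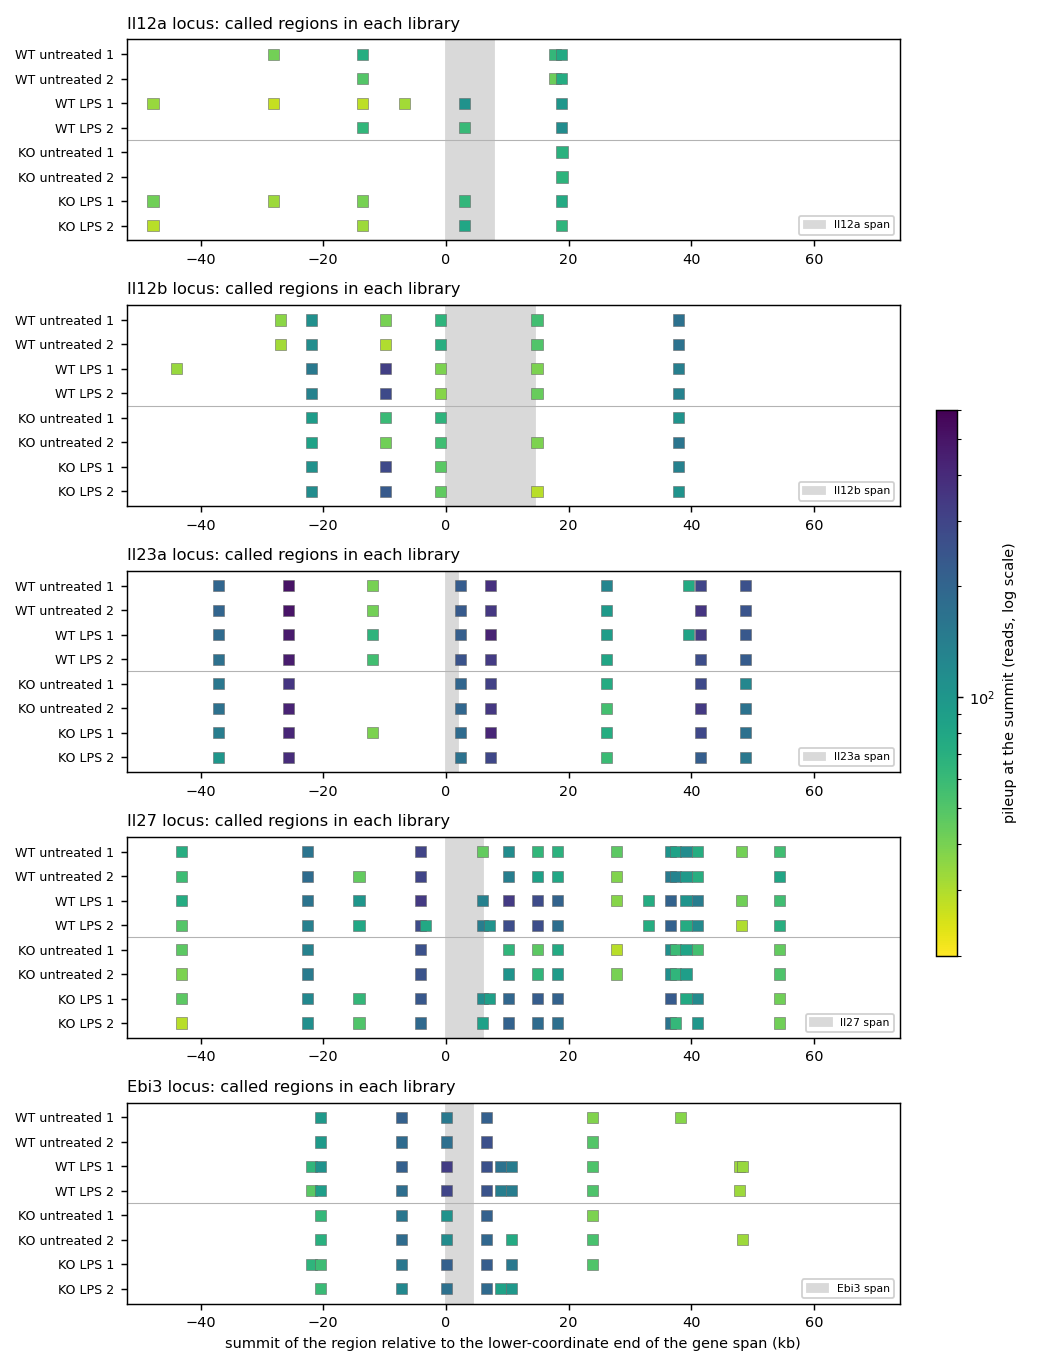
Each row is a library and each square a called region at 1 of the 5 loci, placed by the distance in kb of its summit from the lower-coordinate end of the gene span (grey) and coloured by summit pileup on a log scale. At Il12b the region 9.85 kb before the start darkens in all 4 LPS libraries, at Il12a the region inside the gene appears in the 4 LPS libraries alone, and at Il23a 7 of the 9 regions are present in every row.

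The clearest change at the 5 loci was at Il12b, which encodes the chain shared by IL-12 and IL-23. The region chr11:44389916-44390624 lies 9.85 kb before the Il12b start, with Il12b as its nearest gene. Its summit pileup was 40 and 30 reads in the WT untreated libraries, 321 and 279 in WT LPS, 60 and 42 in KO untreated and 285 and 232 in KO LPS. All 4 LPS libraries were above all 4 untreated ones. In such bulk libraries a change within every cell and a change in the share of cells that are open cannot be told apart. The mean pileup was 8.57 times as high after LPS in WT, with SDs of 7.07 reads untreated and 29.7 after LPS (n = 2 each). In KO it rose from 51.0 ± 12.7 to 258.5 ± 37.5 reads (SD, n = 2 each), 5.07 times as high. The WT ratio ranked 1 of the 30960 shared regions, for pileup and for fold enrichment alike, and in KO it ranked 17 for pileup and 39 for fold enrichment.

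Fold enrichment at the same region was 6.27 and 4.74 in WT untreated, 19.9 and 17.8 in WT LPS, 9.34 and 6.58 in KO untreated and 19.8 and 18.9 in KO LPS. The local background rose with the summit, from 5.53 reads in all 4 untreated libraries to between 11.3 and 15.2 in the LPS libraries. Fold enrichment therefore showed a smaller ratio than pileup. The 5.53 reads were the lowest local background in each library, so a lower level around the untreated summits would not be seen. As a percentile the region stood at 13.4 and 4.53 in WT untreated and at 97.7 and 95.8 in WT LPS, and it moved from 49.9 and 19.1 in KO untreated to 97.99 and 98.4 in KO LPS. The difference was 87.8 points in WT (SE 9.58, limma adjusted p = 0.00230) and 63.7 points in KO (SE 9.58, limma adjusted p = 0.00360). After LPS, KO and WT overlapped, with a difference of 1.42 points (SE 9.58, limma adjusted p = 0.966). The genotype difference in the LPS effect was -24.1 points (SE 13.6, limma adjusted p = 0.718), which did not pass the test.

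Closer to the gene the direction was the reverse. The region chr11:44398925-44399324, 0.936 kb before the Il12b start and the nearest to it, had pileups of 66 and 71 reads in WT untreated, 39 and 37 in WT LPS, 67 and 57 in KO untreated and 48 and 46 in KO LPS. Every LPS library was below every untreated library. Its local background lay between 5.53 and 5.88 reads over the 8 libraries, at or near 5.53 reads, the lowest value in each library. The percentile fell by 36.6 points in WT (SE 7.88, limma adjusted p = 0.0177), from 46.1 and 54.1 to 12.6 and 14.3. In KO the difference of -12.8 points (SE 7.88, limma adjusted p = 0.304) did not pass the test, and the genotype difference of 23.9 points (SE 11.1, limma adjusted p = 0.651) did not either. The WT call rested on all 4 of its libraries. Without any 1 of them the difference lay between -40.7 and -32.6 points, where the group left with 1 library is assumed to vary like the others. Ranked by pileup, the fall was 11.1 points (limma adjusted p = 0.0923).

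The other regions of Il12b changed less. The strongest, chr11:44437722-44438208, lies 23.3 kb past the gene and nearer to Ublcp1, and had a fold enrichment of 19.9 and 20.6 in WT untreated, 19.6 and 16.7 in WT LPS, 14.8 and 19.0 in KO untreated and 18.5 and 14.9 in KO LPS, with the groups overlapping. The region chr11:44372879-44373201, 27.0 kb before the start, was called in the WT untreated libraries at pileups of 36 and 32 reads and in no other library. That made it lost with LPS in WT and lost in KO untreated cells, 2 comparisons that share the WT untreated libraries. Of the other 3 regions, 1 was called in 1 library, 1 in 6 and 1 in all 8. None of the 7 regions of Il12b was gained in any of the 4 comparisons. Of all regions, 10.1% were gained with LPS in WT and 8.03% in KO, and 0.735% in KO untreated and 0.711% in KO LPS cells against WT.

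**Figure D2:**
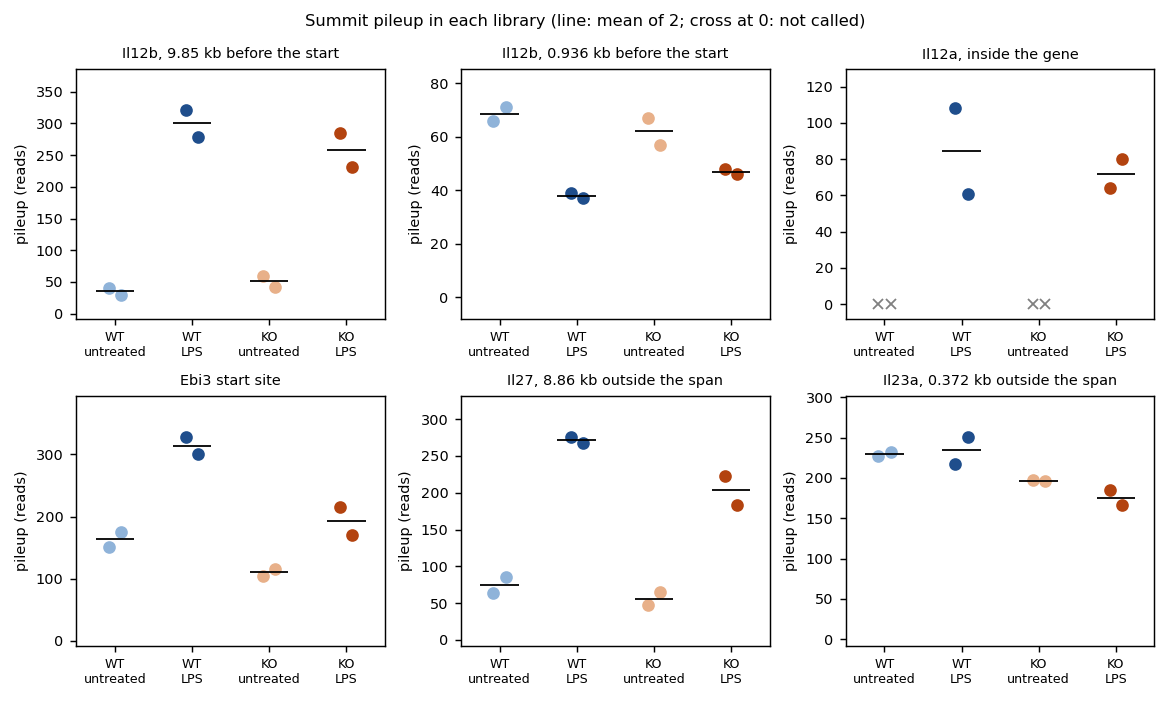
Summit pileup in reads (linear axis from 0) of 6 regions, 1 dot per library, with the mean of the 2 libraries as a line and a cross at 0 where no peak was called. At the region 9.85 kb before Il12b the LPS dots lie between 232 and 321 reads and the untreated dots between 30 and 60, while 0.936 kb before Il12b the order is turned, and the region 0.372 kb outside the Il23a span shows no shift with LPS of comparable size.

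Il12a, which encodes the chain that pairs with the Il12b product in IL-12, gained a region inside the gene. The region chr3:68693462-68694058 lies within the span, 2.25 kb from the nearer of the 2 starts, and is the nearest to either of them. It was called in none of the 4 untreated libraries and in all 4 LPS libraries, with pileups of 108 and 61 reads in WT LPS and 64 and 80 in KO LPS. The fold enrichment was 11.5 and 7.87 in WT LPS and 8.23 and 9.40 in KO LPS, so the genotypes overlapped. It was the only one of the 52 regions called in all 4 LPS libraries and no untreated one, a pattern shown by 4.85% of all regions. No fold against the untreated libraries is given, because they hold no value for it.

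Untreated KO cells had the fewest regions at Il12a. The number of called regions was 4 and 3 in WT untreated, 6 and 3 in WT LPS, 1 and 1 in KO untreated and 5 and 4 in KO LPS, and the summed fold enrichment was 32.8 and 21.6, 38.1 and 26.9, 8.25 and 9.24, and 32.1 and 25.2 in the same order. Both KO untreated libraries were below the other 6 libraries on both measures. The share of all gene windows with this order was not counted, and 1 of the KO untreated lists is the shortest of all. The region chr3:68676783-68677376, 13.6 kb before the gene, had pileups of 73 and 50 reads in WT untreated, 28 and 64 in WT LPS and 40 and 33 in KO LPS, and was not called in KO untreated. The region chr3:68708273-68708558, 9.88 kb past the gene, was called in the WT untreated libraries alone, at 63 and 43 reads. Another, chr3:68642733-68643223, 47.8 kb before the gene, was called in both KO LPS libraries at 42 and 29 reads and in 1 WT LPS library at 34 reads. The 2 remaining regions before the gene were called in 3 libraries and in 1. The pileups of the 3 regions given by coordinates ran from 28 to 73 reads, where the medians of the lists were 73 to 87, and by fold enrichment the region 13.6 kb before the gene stood between percentile 13.2 and 71.5 of the lists that called it. When all 8 lists were cut to the 44504 peaks of the shortest, 1 region of the family was lost in KO untreated cells in place of 4. Il12a lies on the same chromosome as Lmna, 19.8 Mb away, and the part of this linkage in the KO values was not tested.

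The 1 Il12a region called in all 8 libraries, chr3:68709209-68709984, named after its values had been seen, 10.96 kb past the gene, had pileups of 77 and 74 reads in WT untreated, 101 and 116 in WT LPS, 68 and 67 in KO untreated and 76 and 66 in KO LPS. Its percentile was higher after LPS in WT and lower in KO, but neither passed the test, with differences of 11.5 points (SE 7.10, limma adjusted p = 0.327) and -9.21 points (SE 7.10, limma adjusted p = 0.415).

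At Il23a, which encodes the chain specific to IL-23, none of the 9 regions was gained or lost with LPS in either genotype. Of all regions, 10.1% were gained and 6.02% lost with LPS in WT, and 8.03% and 5.56% in KO. The region nearest to the gene, chr10:128298123-128299099, lies 0.372 kb outside the higher-coordinate end of the span and had pileups of 227 and 232 reads in WT untreated, 217 and 251 in WT LPS, 197 and 196 in KO untreated and 185 and 166 in KO LPS. In pileup the WT groups overlapped, and the KO values were the lower ones in both treatments, by ratios of 0.856 untreated and 0.750 after LPS against the medians of 0.795 and 0.788 over all shared regions. By fold enrichment its percentile was 46.1 and 37.96 in KO untreated and 20.6 and 23.9 in KO LPS, a difference of -19.8 points that did not pass the test (SE 6.76, limma adjusted p = 0.0739), and in WT the difference was -6.24 points (limma adjusted p = 0.599). Ranked by pileup, the differences were 0.17 points in KO and 5.76 in WT, and neither passed. Of the 9 regions 7 were called in all 8 libraries. The strongest, chr10:128270059-128270805 in Apof, had pileups of 511 and 501 reads in WT untreated, 476 and 460 in WT LPS, 355 and 431 in KO untreated and 415 and 393 in KO LPS. Its percentile fell by 6.92 points in WT (SE 1.99, limma adjusted p = 0.0499).

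The region chr10:128258829-128259365 beside Apon fell by 18.4 points in KO (SE 5.54, limma adjusted p = 0.0490), where its fold enrichment was 16.3 and 16.2 untreated and 13.3 and 9.48 after LPS. Both calls were marginal. Without each library in turn, which leaves 1 library in a group, the difference ran from -8.57 to -5.26 points at the Apof region. At the Apon region it ran from -27.5 to -9.36 points. Leaving out a library of the other genotype did not change either difference. Both calls were lost in most of these fits. With all libraries and the limma trend off, neither passed (limma adjusted p = 0.224 at the Apof region and 0.104 at the Apon region). Both were lost when ranked by pileup, by which the Apof region stood 0.34 points higher after LPS. One region inside Stat2, chr10:128284020-128284412, was called in all 4 WT libraries at pileups of 40 to 67 reads, in neither KO untreated library and in 1 KO LPS library at 39 reads, and it was counted as lost in KO untreated cells.

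Il27, which encodes the IL-27 chain that pairs with the Ebi3 product, had 18 regions, and the pileup rose with LPS over a stretch just outside the higher-coordinate end of the span. The region chr7:126603651-126604106, 8.86 kb outside it, had pileups of 64 and 86 reads in WT untreated, 276 and 267 in WT LPS, 47 and 65 in KO untreated and 223 and 184 in KO LPS. All LPS libraries were above all untreated ones, and the mean was 3.62 times as high in WT and 3.63 times in KO, ranks 110 and 105 of the 30960 shared regions. The percentile of its fold enrichment rose by 22.3 points in WT (SE 4.24, limma adjusted p = 0.0113) and by 31.7 points in KO (SE 4.24, limma adjusted p = 0.00265). Without each library in turn the WT difference ranged from 18.7 to 26.0 points. The WT call did not hold in all of these fits, which leave 1 library in a group.

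The regions on either side of it were chosen for description after their values had been seen. The region chr7:126598928-126599457, 4.13 kb outside the span, had pileups of 116 and 142 reads in WT untreated, 330 and 273 in WT LPS, 65 and 103 in KO untreated and 196 and 210 in KO LPS, without overlap between treatments in either genotype. How many of all shared regions separated so in pileup was not counted. Ranked by pileup, limma called 15.6% of them higher with LPS in WT and 16.1% in KO. Its local background rose from 13.6 and 15.3 reads to 45.0 and 42.8 in WT, and from 10.3 and 11.7 to 32.6 and 27.1 in KO. Fold enrichment, which divides the summit by that background, did not rise, and the WT LPS values of 7.20 and 6.25 were below both WT untreated values, the higher of which was 8.77. The percentile difference was -9.25 points by fold enrichment (SE 9.11, limma adjusted p = 0.558) and 46.7 points by pileup (SE 6.59, limma adjusted p = 0.000293) in WT.

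The region chr7:126606788-126607437, 12.2 kb outside the span, had a like pattern, with pileups of 68 and 79 reads in WT untreated, 206 and 179 in WT LPS, 76 and 94 in KO untreated and 208 and 175 in KO LPS. Its percentile by fold enrichment was higher in all 4 KO libraries than in all 4 WT libraries, at 42.5 to 59.8 against 22.1 to 28.5, the only 1 of the 24 shared regions to show this (4.17%, against 5.43% of all shared regions). The KO and WT difference did not pass the test either untreated (23.1 points, SE 6.82, limma adjusted p = 0.155) or after LPS (29.4 points, SE 6.82, limma adjusted p = 0.101). In reads of pileup the genotypes overlapped. The ratios of KO over WT were 1.16 untreated and 0.995 after LPS, against the medians of 0.795 and 0.788 over all shared regions. Ranked by pileup, KO was 19.2 points higher untreated (limma adjusted p = 0.0991) and 9.92 points higher after LPS (limma adjusted p = 0.411). Neither passed the test.

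**Figure D3:**
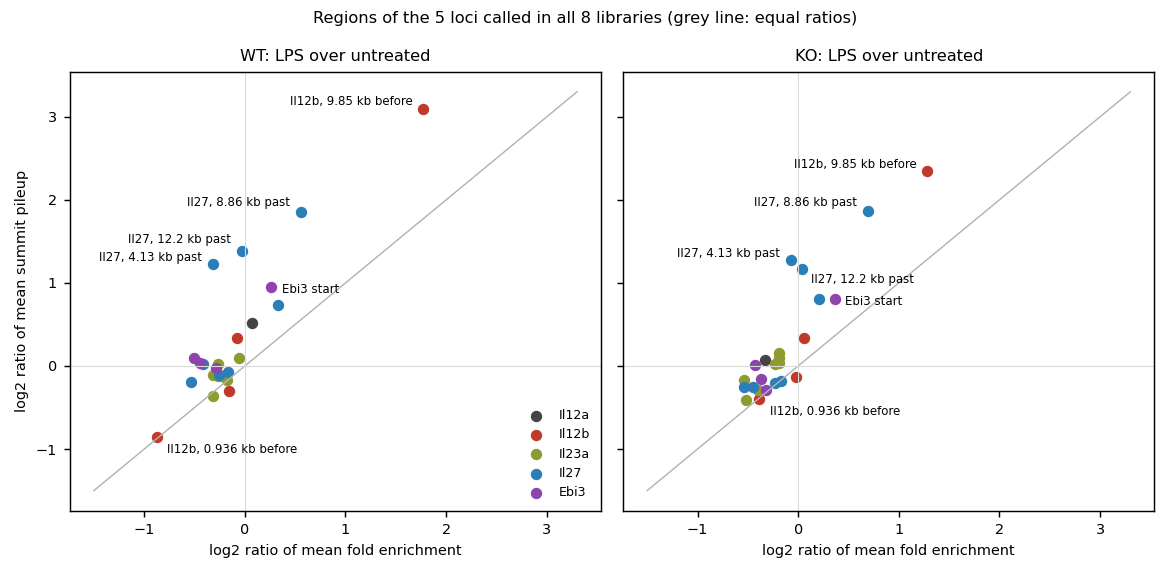
Log2 ratio of group means, LPS over untreated, for the 24 regions called in all 8 libraries, with fold enrichment on the horizontal axis, summit pileup on the vertical axis and a grey line where both are equal. Points of the Il27 locus at 4.13 and 12.2 kb past the span sit near 0 across and above 1 upward in both genotypes, and the Il12b region 9.85 kb before the start is the uppermost point in both panels.

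At the end of the Il27 span itself, the region chr7:126594883-126595403 had pileups of 137 and 144 reads in WT LPS, 115 and 87 in KO LPS and 45 in 1 WT untreated library, and was not called in the other 3 untreated libraries. Its local background was 37.3 and 35.6 reads in WT LPS, and its fold enrichment was at most 4.09 in the libraries that called it. It counted as gained in KO, as did a region inside Cln3, chr7:126574660-126575041, called at 63 and 51 reads in KO LPS, 100 and 79 in WT LPS and 45 in 1 WT untreated library. Towards Nupr1, chr7:126621954-126622218 was called in WT LPS alone, at 74 and 73 reads, and was gained in WT. In the same stretch chr7:126626215-126626592 was lost in WT and chr7:126616745-126617074 was lost in KO. The region with the highest fold enrichment of the locus, chr7:126565635-126566748 beside Eif3c, had 13.1 and 13.95 in WT untreated, 10.6 and 8.07 in WT LPS, 13.2 and 13.7 in KO untreated and 9.89 and 8.68 in KO LPS. Its LPS libraries were all below its untreated ones, and its differences of -24.7 points in WT (SE 7.25, limma adjusted p = 0.0532) and -20.9 points in KO (SE 7.25, limma adjusted p = 0.0777) did not pass the test.

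**Figure D4:**
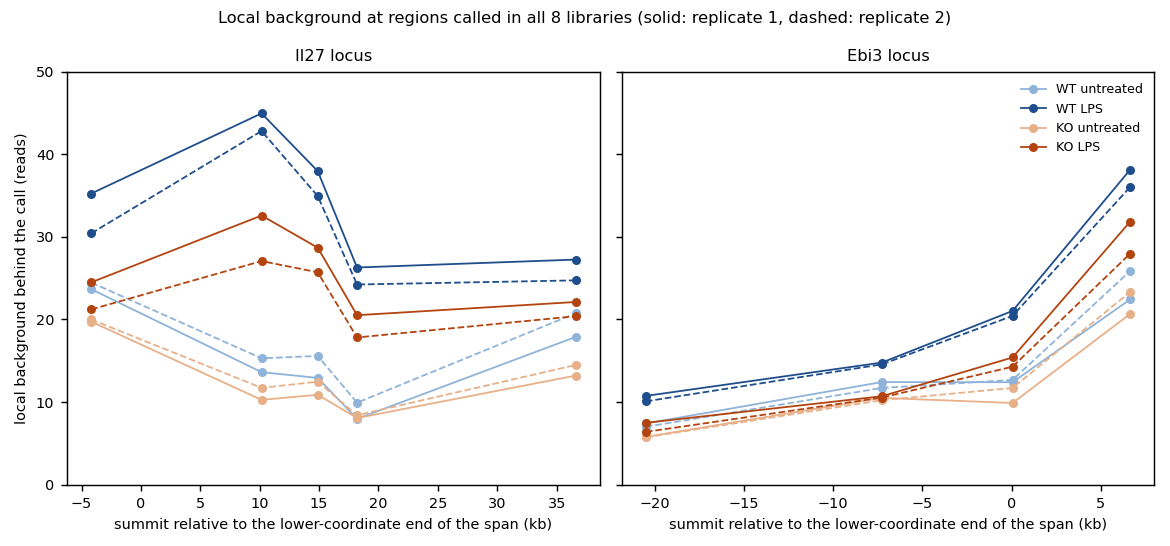
Local background in reads behind each call (vertical axis) at regions called in all 8 libraries, by distance in kb from the lower-coordinate end of the span, with 1 line per library. At Il27 the WT LPS lines peak at 45.0 and 42.8 reads where the untreated WT lines read 13.6 and 15.3, and at Ebi3 the LPS lines lie above the untreated lines of the same genotype at the gene start, at 14.3 to 21.0 reads against 9.88 to 12.7.

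Ebi3, which encodes the other chain of IL-27, was the 1 of the 3 genes with placed starts whose start lay under a peak, and its level there rose with LPS. The region chr17:55952365-55952912 covers the start and lies also inside the span of Zfp119b. Its pileup was 151 and 175 reads in WT untreated, 328 and 300 in WT LPS, 105 and 116 in KO untreated and 215 and 170 in KO LPS. The mean was 1.93 times as high after LPS in WT and 1.74 times in KO, without overlap within a genotype, although KO LPS and WT untreated overlapped. The percentile rose by 22.1 points in WT (SE 6.23, limma adjusted p = 0.0460) and by 27.6 points in KO (SE 6.23, limma adjusted p = 0.0168). Without each library in turn, these rises ranged from 15.8 to 28.4 points in WT and from 22.5 to 32.7 points in KO. The WT call was lost in most of these fits and the KO call in some, and each fit leaves 1 library in a group. With all libraries and the limma trend off, the WT rise did not pass (limma adjusted p = 0.0516). The ranking by pileup was added after the data had been seen. By it the rises were 34.9 points in WT (SE 4.03, limma adjusted p = 8.29e-05) and 32.4 points in KO (SE 4.03, limma adjusted p = 0.000127).

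The 4 regions gained in WT at Ebi3, of its 11, were not at its start, and 10.1% of all regions were gained in WT. The count at Ebi3 was 2 with all lists cut to equal numbers of peaks. It was also 2 at a -log10 p of at least 20, and with windows of 20 kb. The region chr17:55930413-55930790, 22.0 kb before the gene, was called at 65 and 48 reads in WT LPS, at 66 reads in 1 KO LPS library and in no untreated library. Both regions inside Yju2, chr17:55961350-55961730 and chr17:55963137-55963513, had pileups of 142 to 166 reads in WT LPS. Neither was gained in KO, where the first was called in 1 LPS library at 84 reads and the second in both at 153 and 98 reads and in 1 untreated library at 76 reads. The last, chr17:56000207-56000523 in Stap2, was called in WT LPS alone, at 33 and 33 reads. The region with the highest fold enrichment, chr17:55944782-55945712 inside Zfp119b, had 10.7 to 16.4 over the 8 libraries, with the groups overlapping.

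Counted over the family, LPS gained 6 of 52 regions in WT (11.5%), where 10.1% of all regions were gained, and lost 3, where 6.02% of all were lost. In KO it gained 5 (9.62%), where 8.03% of all regions were gained, and lost 1, where 5.56% were lost. These shares are near those of the whole series. All 4 LPS libraries were above all 4 untreated ones in percentile at 3 of the 24 shared regions (12.2% of all shared regions) and below them at 4 (13%). By limma, 3 rose in WT (7.07% of all shared regions were called higher) and 2 fell (6.78% called lower), and in KO 3 rose (9.11%) and 1 fell (8.75%). The 3 that rose were the same in both genotypes, namely those 9.85 kb before Il12b, 8.86 kb outside Il27 and at the Ebi3 start. Ranked by pileup, a comparison added after the data had been seen, 9 rose in WT (15.6% of all shared regions) and 8 in KO (16.1%), and 0 fell in either, where 16.1% and 16.8% of all fell. Beside these 3, the 4.13 kb and 12.2 kb Il27 regions, 1 beside Nupr1 and 1 that lies 22.0 kb before Il12b rose in both genotypes by that ranking. The Il12a region 10.96 kb past the gene and 1 in Pan2 passed it in WT, and 1 in Cs passed it in KO.

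Between genotypes, 0 regions of the family were gained in KO in untreated cells (0.735% of all regions) and 4 were lost (6.22%), at Il12a (2), Il12b and Il23a. After LPS 0 were gained (0.711%) and 3 were lost (6.94%), 2 towards Nupr1 and Sgf29 at the Il27 locus and 1 in Stap2 at the Ebi3 locus. Losses outnumbered gains over all regions too, and the KO lists were the shorter ones. In level, limma called 0 of the 24 shared regions higher (0.181% of all shared regions) or lower (0.287%) in KO untreated cells. After LPS it called 0 higher (0.0226%) or lower (0.0355%). At an unadjusted p under 0.05 there were 6 untreated and 3 after LPS. How many of all shared regions reached that unadjusted p in any comparison was not counted, so such counts have no share beside them. All 4 KO percentiles were below all 4 WT ones at 2 regions (3.39% of all shared regions), near Eif3c and Sgf29 at the Il27 locus. By pileup 1 region, in Cs beside Il23a, was lower in KO untreated cells (-16.2 points, SE 3.68, limma adjusted p = 0.0430), where 0.811% of all shared regions were lower, 0 were higher (1.64%), and after LPS 0 were higher (1.03%) or lower (0.404%). In the series as a whole, 0% of shared regions passed the test for a genotype difference in the LPS effect, and 0 of the 24 of the family had an unadjusted p under 0.05.

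The summed fold enrichment of a locus was lowest at Il12a in all 8 libraries. It was highest at Il23a and Il27, with 78.6 to 108.5 and 84.1 to 109.2 over the 8 libraries, and the order of these 2 was not the same in all libraries. Il12b followed with 46.7 to 70.7 and Ebi3 with 43.1 to 72.6, which overlapped each other, and Il12a was the lowest with 8.25 to 38.1. These sums depend on the number of neighbouring genes in the window, so they describe the windows and not the genes. The genes with the most similar sums over the 8 libraries, out of 13868 protein-coding genes, were Cd47 for Il12a (r = 0.981), Cfap410 for Il12b (r = 0.981), Gpx3 for Il23a (r = 0.995), Zfp710 for Il27 (r = 0.993) and Spats2 for Ebi3 (r = 0.986). Next came Gatd3a and Acat3, Pdcd1 and Pwp2, S100a10 and Arhgdia, Fes and Tnks2, and Rhbdd2 and Il6ra in the same order of members, with r of at least 0.969. All share the 8 libraries and their depths, and these r are descriptions chosen from many.

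Other genes of the pathway were counted from lists of receptor chains, signalling proteins, transcription factors and LPS sensors. Of the 5 receptor chain genes (Il12rb1, Il12rb2, Il23r, Il27ra and Il6st) 2 had a gained region in WT and 2 in KO, where 45.3% and 39.3% of coding genes with a region in their window had one. The 4 JAK and STAT genes counted (Jak1, Jak2, Tyk2 and Stat3) each had one in both genotypes, covering 16 of their 83 regions in WT and 13 in KO, where 10.1% and 8.03% of all regions were gained. Jak2, a kinase of the IL-12 receptor complex, had 5 gained regions in each genotype, and Stat3, which IL-23 and IL-27 activate in T cells, had 5 in WT and 3 in KO. Of 16 transcription factors known to act on these cytokine genes in myeloid cells, 12 had a gained region in WT and 14 in KO. These covered 38 of their 264 regions in WT and 29 in KO, beside the same 10.1% and 8.03% of all regions. Nfkb1 had 9 and 6 of its 26 regions gained. Nfkbiz, an inducible nuclear IkB protein needed for Il12b, had 6 and 3 of its 16. Windows with more regions have more room for a gained one. Of 7 genes for LPS sensing 4 had one in WT and 2 in KO. In these lists 3, 1, 8 and 4 genes had a region lost with LPS in WT (38% of coding genes) and 2, 3, 5 and 4 in KO (35.4%). For the family itself, 3 of 5 genes had a gained region in WT and 2 in KO.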

How the data were processed

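Per the labels, ATAC-seq libraries were made from cultured mouse macrophages, with 10 cycles of PCR. The authors deposited 1 peak list per library, called without pooling replicates, with BWA 0.7.12 and MACS2 on mm10 named in the submitters' processing notes. The deposited fold enrichment is a ratio over local background, the deposited -log10 p and -log10 q are the caller's, the deposited score is a whole-number form of the -log10 p, and the authors gave summits as distances in bp. The filter behind the lists is not given in the sources used here, and read totals were not used here.

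Treatment was read from the titles, since the source names give both LPS and untreated for the treated libraries. Peaks overlapping by at least 1 bp were merged. A region was gained when both libraries of a group called it and neither of the other did, and lost in reverse. No region has its own p from calls, because 2 against 2 cannot go below an exact two-sided p of 0.333. Pileup and local background were solved from the fold enrichment and -log10 p within 0.001, for 100% of peaks. Percentiles were tested with limma 3.58.1 in R 4.3.3 over all 4 groups together (trend on, no block), at an adjusted p of 0.05, after a test on simulated data. The p-values judge differences against the spread between libraries, pooled over the 4 groups and moderated across all shared regions. Whether that spread includes the variation between animals is not known. Gene spans came from RefSeq, GRCm38.p6, with distances to the nearest protein-coding gene.

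Named regions were the nearest to each start or span, all gained, lost or limma-called ones and the strongest of each locus. Genes alike were ranked by Pearson r over 8 libraries among genes with windows apart from the members'. The members and lists were chosen with earlier results of these data known. Part of the JAK and STAT list is not reported here. Alternatives changed the window, the overlap, the summit width, the ranking measure, the filter, the limma trend and block, and the libraries.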

Additional observations from a re-analysis of the deposited data

Results flagged for a closer look

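Ranked by fold enrichment, the accessible region 10.96 kb past Il12a was higher after LPS in WT and lower in KO. Its percentile among the shared regions was 31.6 and 30.9 in WT untreated and 35.9 and 49.6 in WT LPS, and it was 40.1 and 43.6 in KO untreated and 33.7 and 31.6 in KO LPS. In WT both LPS values lay above both untreated values and in KO both lay below, which is why it is listed. The genotype difference in the LPS effect was -20.7 points (SE 10.04, limma adjusted p = 0.666 over 30960 regions), which did not pass the test. Ranked by pileup, the differences with LPS had the same sign, 22.9 points in WT (limma adjusted p = 0.0103) and 7.22 points in KO (limma adjusted p = 0.376).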

How the results depend on the processing

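The gains, losses and levels were recomputed with other windows, overlaps, rankings and filters and without each library. With all lists cut to equal numbers of peaks, KO untreated cells lost 1 region against WT, and KO LPS cells gained 1 and lost 1. At a -log10 p of at least 20, KO LPS gained 1 against WT, and limma called 0 higher in WT, 1 higher in KO and 1 lower in WT. The regions 9.85 kb and 0.936 kb before Il12b and the one 8.86 kb outside Il27 then left the shared set, each with a peak under that limit, and the Ebi3 start missed the threshold in WT (25.9 points, limma adjusted p = 0.0536). With 20 kb windows WT gained 3 and lost 1, KO lost 0, and KO LPS lost 0 against WT. With 100 kb windows WT gained 11, KO gained 12 and KO untreated lost 7. Where a peak had to cover at least 50% of a region, KO gained 3 and KO LPS lost 5 against WT, and with regions of 250 bp around summits KO untreated gained 1. Ranked by -log10 p, 7 regions rose in WT, 6 rose in KO, 1 fell in WT and 0 fell in KO. Ranked by pileup, which was chosen after seeing the data, 9 rose in WT and 8 in KO, 0 fell in WT, 0 fell in KO, and 1 was lower in KO untreated cells. Over regions called in the 4 libraries compared, 1 fell in WT and 0 in KO. The region in Cs reversed in KO to 7.69 points by -log10 p and 11.3 by pileup, the Apof region in WT to 0.34 by pileup, and the region 4.13 kb outside Il27 in WT to 35.2 and 46.7. The mean local background that divides the fold enrichment rose with LPS at each of them. It went from 8.99 to 11.7 reads in Cs in KO and from 25.3 to 29.3 in Apof in WT. At the Il27 region in WT it went from 14.5 to 43.9 reads. The cause of the reversals was not tested. Covered length gave ratios of LPS over untreated of 5.44 in KO at Il12a, 1.02 in KO at Il12b, 1.02 in WT and 1.10 in KO at Il23a, 1.22 in WT and 1.15 in KO at Il27, and 1.47 in WT at Ebi3, where summed fold enrichment gave 3.28, 1.19, 0.867, 0.868, 0.992, 0.988 and 1.21.

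Without each library in turn, the gained regions ranged from 6 to 10 in WT, 5 to 9 in KO, 0 to 2 in KO untreated against WT and 0 to 1 in KO LPS against WT, and the lost ones from 3 to 4, 1 to 3, 4 to 9 and 3 to 8. The limma calls ranged from 1 to 3 higher and 0 to 2 lower in WT, and from 2 to 3 higher and 0 to 1 lower in KO. Each of these fits leaves 1 library in a group, and over all shared regions fewer passed with LPS in WT and in KO as well. Differences that crossed 0 ranged from -7.19 to 3.71 points in Cs in KO and -7.08 to 18.1 at the 4.13 kb Il27 region in KO. In WT they ranged from -4.95 to 11.8 for the region 22.0 kb before Il12b and -4.27 to 12.8 in Pan2. With the replicate number as a block, 1 region fell in WT (Il12b) and 2 rose, the Ebi3 start and the Apof region being lost, each at an adjusted p of 0.0673. The numbers did not pair the libraries, as the correlations of same-numbered deviations lay between -0.0772 and 0.0335. The region 9.85 kb before Il12b passed in both genotypes under every setting that kept it. Read totals were not used here. The lowest local background, which scales with the reads used in calling, was 5.53 reads in each of the 8 libraries, and the lowest pileup called was 23 or 24, so weaker sites could not be seen in any of them.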
